A study of Homo sapiens with 4 samples.

Results

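The genes described here are 57 human genes of DNA replication and DNA repair, out of 20033 protein-coding genes in the GENCODE annotation, version 44. They were chosen by name for their known roles, with earlier results of these data known. Each gene was taken as its annotated interval on hg38, from the first to the last base of any of its transcripts, and was compared with the peaks of BrdU incorporation that lay over it. BrdU is a thymidine analogue that cells build into newly made DNA, and a BrdU peak is a short stretch where labelled DNA was overrepresented against Input DNA. The cells were BJ-hTERT, human foreskin fibroblasts immortalized with telomerase, which were released from serum starvation and pulsed with BrdU before each of 5 timepoints, at 16, 19, 22, 24 and 28 h. The study used such peaks to mark hotspots where replication forks slow down, pause or stall.

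The list held 33295 peaks from all timepoints of 2 repeats, without a label for the timepoint or the repeat and without a height or score. Its depth is therefore unknown, no difference could be set against a spread between replicates, and no test was run. Intervals given here are 95% intervals that cover counting error only. The 4 RNAPII and PCNA ChIP-Seq samples of the series, at 14 and 16 h, were not analysed here. Peaks that overlapped or touched were merged into 25634 sites, because the same stretch could be listed more than once. The depth of a site is the largest number of listed peaks over any one of its bases.

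Genome duplication starts at origins, which the origin recognition complex (the ORC proteins) marks and on which CDC6 helps to load the MCM helicase. DNA polymerases, held by the PCNA clamp, then copy both strands, while topoisomerases take away the twist ahead of the fork. Forks that stop are sensed by the kinase ATR, and broken or crosslinked forks are repaired by homologous recombination and the Fanconi anemia pathway. Mutations in many of these genes predispose to cancer.

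Of the 57 genes, 23 (40.4%, exact interval 27.6 to 54.2%) had at least 1 BrdU site, against 21.2% of all protein-coding genes. The genes were also longer, with a median of 78.3 kb against 27.5 kb for all protein-coding genes, and long genes had a site more often. Each gene was therefore set beside the 20 protein-coding genes of the same chromosome nearest to it in length, none of them one of the 57. Of these length neighbours, 32.4% had a site (369 of 1140, a neighbour being counted once for each gene it stood beside). This share lay within the interval of the 57 genes.

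In all, 102 peaks merged into 85 sites (exact Poisson interval 67.9 to 105) over the 57 genes, which cover 5.99 Mb. The density was 14.2 sites per Mb (11.3 to 17.6), against 11.3 per Mb over the length neighbours and 10.3 per Mb over all protein-coding genes. RAD51B alone held 31 sites. It had 36.5% of the sites on 15.2% of the length, and without it the density of the other genes was 10.6 sites per Mb (7.99 to 13.9). Of the other genes with a site, 7 had 3 or more, 7 had 2, and 8 had 1.

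**Figure D1:**
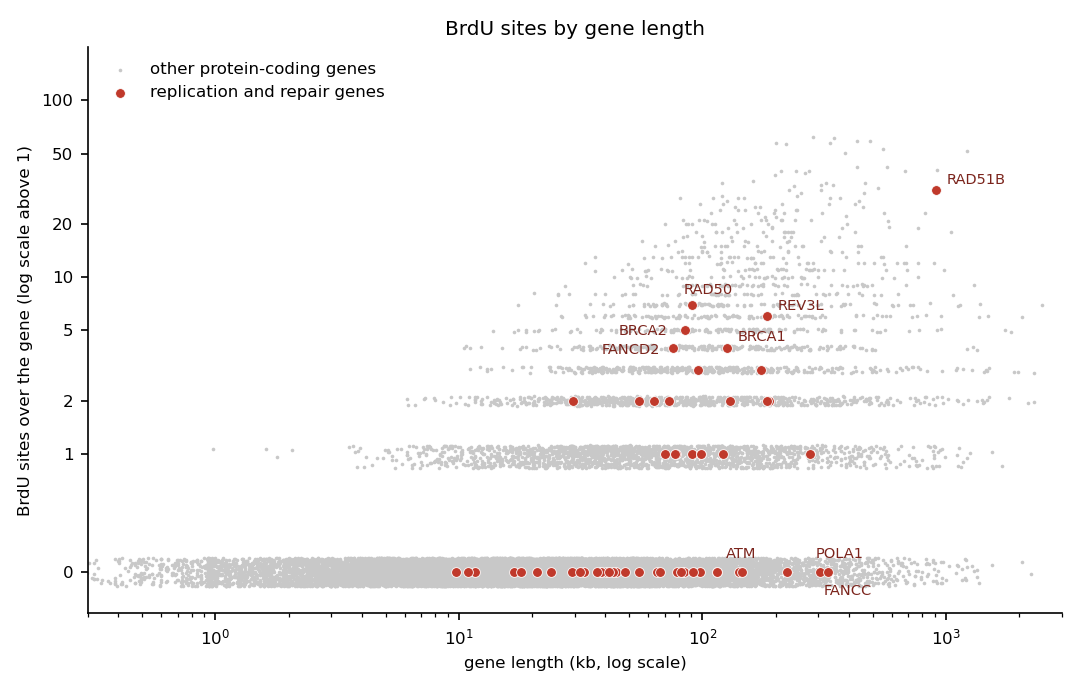
Number of BrdU sites over each protein-coding gene against its length, both on log scales (sites linear below 1), with the 57 replication and repair genes in red and the other genes in grey. Grey points are spread slightly in height so that they can be seen. RAD51B, with 31 sites on 910 kb, stands at the top of the red points, while FANCC and POLA1, each over 300 kb long, lie at 0.

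Some sites are shown by their sequence because the account of position, overlap and repeats turns on them. All are read from hg38 on the coding strand of the gene. The first kind is the tandem array, a stretch in which one unit is repeated head to tail. Arrays were found by the self match, the largest share of bases in a site that equal the base a fixed offset further on. Bases whose partner at that offset lay outside the site were left out of the share. Arrays were called at a self match of 70% or more. Both arrays found lay in intron 1 of POLE, the catalytic subunit of the leading strand polymerase, and both had a unit of 66 bp. The last 5 units of the larger array, chr12:132683951-132684280 on the minus strand, are given in 5′ to 3′ order, with a capital letter for each base that differs from the most frequent base at that position:
POLE unit 1: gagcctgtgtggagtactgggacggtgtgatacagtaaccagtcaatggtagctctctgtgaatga
POLE unit 2: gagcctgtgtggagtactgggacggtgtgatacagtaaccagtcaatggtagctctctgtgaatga
POLE unit 3: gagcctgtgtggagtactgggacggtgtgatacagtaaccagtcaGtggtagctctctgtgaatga
POLE unit 4: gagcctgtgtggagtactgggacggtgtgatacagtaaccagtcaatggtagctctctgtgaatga
POLE unit 5: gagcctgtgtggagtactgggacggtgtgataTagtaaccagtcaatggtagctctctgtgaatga
Of these units, 3 were identical and 2 positions varied at all. The site is long enough for 8 whole units, and the 5 shown were taken because they line up with each other. Over the whole site the self match was 81.5%.

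The second kind is a site over a coding exon. The site in BRCA1, chr17:43093208-43093408 on the minus strand, lay whole within exon 10 of the canonical transcript, the largest exon of the gene with 3426 bp. Capitals mark exon bases:
BRCA1 exon 10: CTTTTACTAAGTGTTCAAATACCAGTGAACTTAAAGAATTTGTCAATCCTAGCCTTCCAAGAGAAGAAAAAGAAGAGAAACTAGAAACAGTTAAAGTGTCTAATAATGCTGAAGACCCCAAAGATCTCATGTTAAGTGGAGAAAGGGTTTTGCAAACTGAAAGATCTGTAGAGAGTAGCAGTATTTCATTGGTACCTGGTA
The site in FANCD2, chr3:10042610-10042856 on the plus strand, took in the last 54 bases of exon 11 and ran on into the intron:
FANCD2 exon 11: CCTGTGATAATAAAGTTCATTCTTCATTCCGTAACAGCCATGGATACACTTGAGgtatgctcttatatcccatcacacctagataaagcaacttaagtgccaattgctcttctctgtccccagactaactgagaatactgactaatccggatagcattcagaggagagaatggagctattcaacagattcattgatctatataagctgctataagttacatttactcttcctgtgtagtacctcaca

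The third kind is a stretch under more than 1 peak. In intron 16 of BRCA2, peaks of 325 and 218 bp shared 175 bases, chr13:32361105-32361279 on the plus strand:
BRCA2 intron 16: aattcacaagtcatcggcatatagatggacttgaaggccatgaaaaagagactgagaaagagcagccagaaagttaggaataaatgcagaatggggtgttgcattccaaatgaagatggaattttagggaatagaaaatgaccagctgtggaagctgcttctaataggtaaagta
It was no array, as the self match of the whole site was 36.0%.

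The fourth kind is a site with repeats whose self match fell under the limit for an array. Capitals mark the motif CACACA (or TGTGTG, its reverse complement), overlapping matches joined. One such site lay in FANCI, chr15:89314000-89314266 on the plus strand:
FANCI repeat: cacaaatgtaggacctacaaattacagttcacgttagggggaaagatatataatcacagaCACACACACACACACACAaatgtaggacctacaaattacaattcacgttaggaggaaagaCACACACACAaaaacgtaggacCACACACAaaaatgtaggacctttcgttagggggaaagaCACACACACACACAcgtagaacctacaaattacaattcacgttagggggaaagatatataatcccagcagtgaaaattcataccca
The motif made up 18.7% of the bases of this site. The self match of the site was 57.2%, at an offset of 115 bp, so the motif marks only part of its repeats. Over sites of any width, 15 of 85 in the group held the motif (17.6%, exact interval 10.2 to 27.4%), against 27.9% in all protein-coding genes. Among sites up to 300 bp wide, 4 of 51 held it (7.84%, exact interval 2.18 to 18.9%), against 22.2%. These shares were not recomputed without RAD51B, and sites of one gene are not independent of each other.

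The homologous recombination genes carried 50 of the 85 sites, in 6 of 9 genes (66.7%, against 43.9% of their length neighbours). RAD51B, which acts in strand invasion as part of a complex with RAD51C, spans 910 kb of chromosome 14 and held 34 peaks in 31 sites. Genes of such length are few, so that its 20 length neighbours ran from 363 to 1698 kb. Each had fewer sites, with a median of 1.00 and a maximum of 17, and 30 protein-coding genes in the whole annotation, RAD51B included, had 31 sites or more. In sites per 100 kb RAD51B reached 3.40, against a median of 0.122 and an upper quartile of 0.504 among these neighbours. The level of RAD51B was below that of 5 shorter genes of the group.

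The sites were uneven along RAD51B. The first lay 134 kb from the start of the gene, and a stretch of 208 kb in the middle had none. Within the canonical transcript (658 kb) there were 13 sites, 8 of them in intron 7, which is 405 kb long, 1 in intron 8 and 4 in intron 9. The other 18 lay in the 252 kb that only longer transcripts of the gene reach, a density of 7.14 per 100 kb against 1.97 within the canonical transcript. Sites there also stood close together: pairs 71, 84 and 199 bp apart were found, and 5 sites fell between 791 and 799 kb from the start. Of the 31 sites, 3 had a depth of 2, none overlapped an exon, and the AT content ranged from 45.1 to 68.8%.

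RAD50, the ATPase of the MRE11 complex that tethers broken ends, had the highest density of all 57 genes, with 7.75 sites per 100 kb. Its 8 peaks formed 7 sites on 90.3 kb, 3 of them in intron 2 and 2 in intron 21. No neighbour had more sites, and 1 had as many. The widest site of the group, with 761 bp and a depth of 2, lay in its intron 2, 5.77 kb from the TSS. RAD50 also had 12 further sites within 100 kb of its ends, the most of any of the genes. All 7 sites lie as well in an overlapping protein-coding gene without a symbol, and their peaks cannot be assigned to either gene alone.

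BRCA2, which acts after the resection of broken ends, had 7 peaks in 5 sites on 85.2 kb of chromosome 13 (5.87 per 100 kb), and 1 of its 20 neighbours had more. The sites fell in 3 places between 38.8 and 68.3 kb from the TSS. In the first was a site of depth 2 in intron 13, 473 bp wide. The second held the site shown above and another 59 bp further on in intron 16, the closest pair in the group. The third was a pair in intron 24, 957 bp apart. The last of these, chr13:32383703-32383971, overlapped an exon that is used by a minor transcript marked for nonsense-mediated decay and not by the canonical one. No site lay over exon 11 of BRCA2, by far its largest.

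BRCA1, a ubiquitin ligase with BARD1 that acts in end resection, had 4 peaks in 4 sites on 126 kb (3.18 per 100 kb), against a median of 1.00 site among its neighbours, of which 4 had more. Beside the site in exon 10, 1 lay in intron 11 and 1 in intron 12, so that these 3 fell between 32.1 and 43.5 kb from the TSS. The fourth lay 31.9 kb upstream of the canonical TSS, in a part of the gene interval that only other transcripts reach, and there it also overlapped a long noncoding RNA. BRIP1, a helicase that binds BRCA1, had 2 sites on 184 kb, 1 of them of depth 2. RAD52, which anneals single strands, had 1 site on 78.3 kb. BARD1, PALB2 and RAD51C, with lengths from 38.2 to 84.0 kb, had none.

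**Figure D2:**
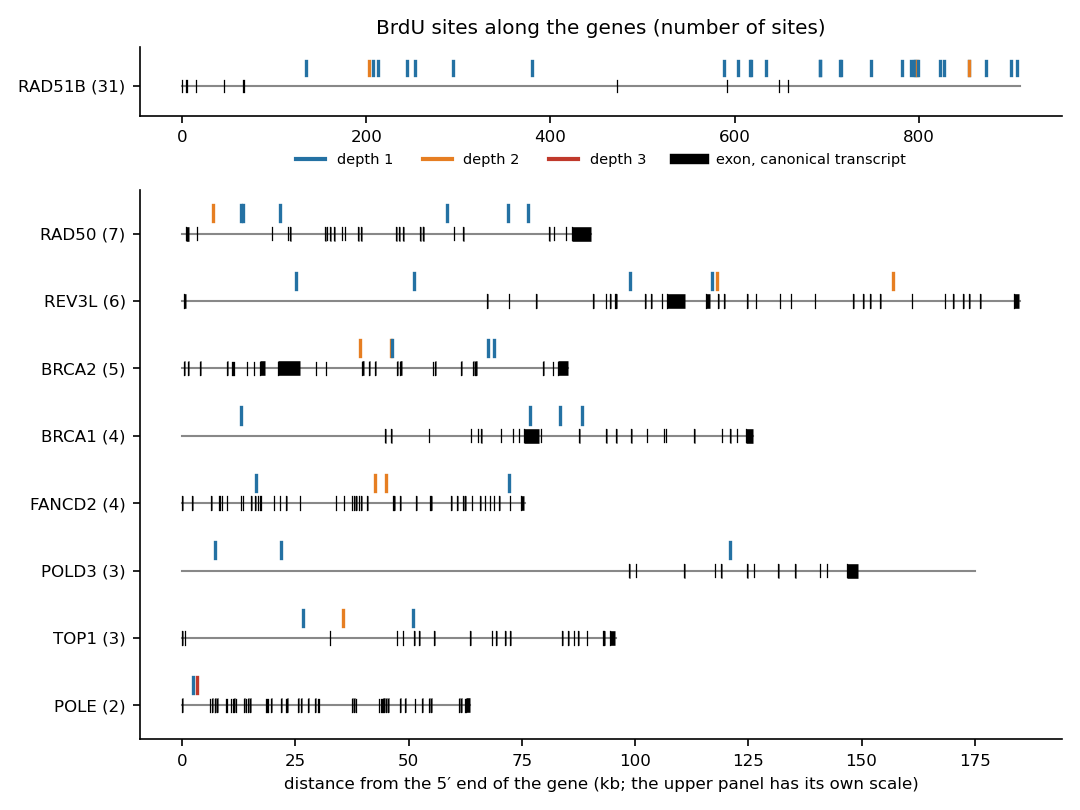
BrdU sites along the 8 genes with 3 or more sites and along POLE, by distance from the 5′ end of the gene in kb. Coloured ticks are sites (blue, orange and red for a depth of 1, 2 and 3), black bars are exons of the canonical transcript, and the number of sites stands after each name. In RAD51B the sites crowd into the end of the gene, while both sites of POLE stand beside its start.

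Of the 6 Fanconi anemia genes, 3 had a site, as did 31.7% of their length neighbours and 0 of 7 other genes of the pathway. FANCD2, which is ubiquitylated and clamped on DNA at crosslinks, had 6 peaks in 4 sites on 75.6 kb (5.29 per 100 kb). None of its 20 neighbours had more than 2 sites. Beside the site over exon 11, a pair of depth 2 lay in intron 26, 2189 bp apart, and a last site lay in intron 42, only 43 bp from the nearest exon and also within FANCD2OS on the other strand. FANCI, its partner, had 2 sites on 73.3 kb: 1 in intron 1, 2.46 kb from the TSS, and the repeat site in intron 35, which also lies in POLG, the mitochondrial DNA polymerase gene. FANCA had 1 site, in intron 30. FANCC (328 kb), FANCL (82.2 kb) and FANCM (65.0 kb) had none, although 10 of the 20 neighbours of FANCC had a site.

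Of the kinases that signal damaged and stalled forks, ATR had 2 sites on 130 kb, in intron 16 and intron 28, each a single peak of 196 bp, against a median of 1.00 among its neighbours. ATM, which responds to double-strand breaks, had no site on 146 kb, and the nearest lay 59.1 kb away. The counts are small: the exact Poisson interval of 2 sites is 0.242 to 7.22 and that of 0 sites reaches 3.69, so that the genes could not be told apart. Of the 4 RecQ helicase genes, where 30.0% of the length neighbours had a site, BLM had 1, in intron 10, while WRN (142 kb), RECQL and RECQL5 had none. None of the mismatch repair genes MSH3, MSH6 and PMS2 had a site on 375 kb in all, where 40.0% of their neighbours had at least 1. A site stood 2.99 kb outside MSH3.

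Of the 6 end joining and ligase genes, 3 had a site, against 31.7% of their length neighbours. PRKDC, the kinase that Ku brings to broken ends, had 2 on 187 kb, in intron 40 and intron 68. XRCC5, the larger Ku subunit, had 1 in intron 17, 64 bp from an exon, and 10 further sites within 100 kb of its ends. XRCC4, the partner of ligase IV, had a single site on 276 kb, in intron 3, which was the lowest density among the genes with a site (0.362 per 100 kb). LIG1, LIG3 and LIG4 had none.

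The DNA polymerase genes held 11 sites in 3 of 7 genes (42.9%, against 35.7% of their length neighbours). REV3L, the catalytic subunit of the translesion polymerase zeta, had 8 peaks in 6 sites on 185 kb (3.25 per 100 kb), where 1 of its 20 neighbours had more. They lay in intron 1 (2 sites), intron 9, intron 14 (2 sites, 214 bp apart) and intron 25, and 5 of the 6 also lay in the overlapping gene MFSD4B. POLD3, a subunit of polymerase delta, had 3 sites, of which 2 lay 77.0 and 91.5 kb upstream of the TSS of its canonical transcript, within the interval of longer transcripts. Its neighbours had a median of 1.50 sites. POLE had 4 peaks in 2 sites on 63.6 kb. POLA1, 303 kb long on the X chromosome, had none, and the nearest site lay 4397 kb away. Only 3 of its 20 length neighbours had a site. POLH, POLK and POLQ had none either.

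The arrays in POLE were 339 bp apart, 2.28 and 3.15 kb from the TSS. In the first, chr12:132684818-132685313, the self match was 74.9%, and in the second, chr12:132683916-132684478, it was 81.5%, both at an offset of 66 bp. The second was covered by 3 peaks of 563, 342 and 207 bp and was the only site of the group with a depth of 3. Over all sites in the group 2 of 85 were arrays (2.35%, exact interval 0.286 to 8.24%), against 4.99% of the sites in protein-coding genes. The share without RAD51B was 3.70%. The next highest self match was 58.7%, in RAD51B, and the median of the sites that were not arrays was 36.7%. No site in the group held a perfect repeat of 20 bp or more, a length reached by 3.59% of the sites in protein-coding genes, and the longest had 19 bp, in FANCI.

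**Figure D3:**
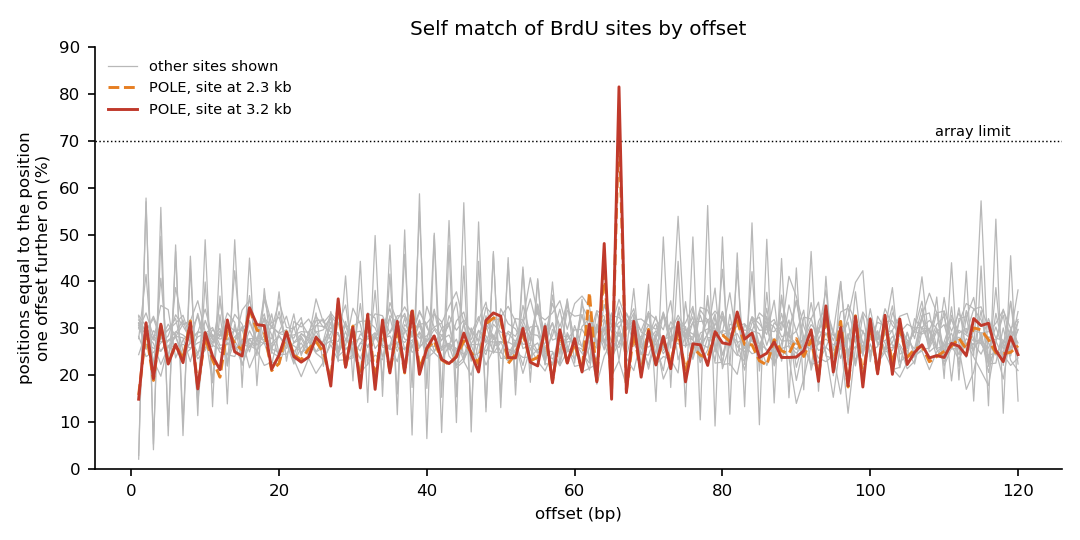
Percent of bases equal to the base one offset further on, among bases whose partner lies in the site, by offset in bp. Shown are the 2 array sites of POLE (red, and dashed orange) and 14 other sites (grey: those of BRCA1, BRCA2 and ATR and the 3 next highest). Both POLE curves cross the limit of 70%, drawn as a dotted line, at an offset of 66 bp, where they reach 81.5 and 74.9%.

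Of the 14 origin and helicase genes, 3 had a site (21.4%), close to the share of their length neighbours (22.5%). They held 4 sites on 674 kb, a density of 5.93 per Mb with an exact Poisson interval of 1.62 to 15.2, which takes in the 13.5 per Mb of the neighbours. ORC2 had 2, in intron 13 and intron 17, the second 647 bp wide and of depth 2, and 10 more lay within 100 kb of its ends. ORC3 had 1, while none of its neighbours had more than 1. MCM9, a helicase that acts in recombination, had 1 on 122 kb, the longest gene of the set. None of MCM2, MCM3, MCM4, MCM6, MCM7 and MCM8 had a site, nor did ORC1, ORC4, ORC5, CDC6 or CDC45, though sites stood 2.89 kb from ORC1 and 3.52 kb from MCM2. RPA1, the large subunit of the single strand binding protein, had 2 peaks in 1 site of depth 2, in intron 4. PCNA and RFC1 had none, but RFC1 had 6 within 100 kb of its ends.

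Topoisomerase genes had 5 sites on 192 kb, in 2 of 3 genes, and 33.3% of their length neighbours had a site. TOP1 had 4 peaks in 3 sites on 95.7 kb, in introns 2, 3 and 5. TOP2A, which is transcribed most in dividing cells, had 3 peaks in 2 sites on 29.4 kb. It was the only one of 9 genes under 30 kb with a site, and 1 of its 20 neighbours had more. TOP2B had none on 66.9 kb.

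Set beside its own neighbours, a gene of the group had more sites than their median in 22 of 57 cases. The same held for 19.5% of all protein-coding genes and for 30.5% of the length neighbours themselves. These 22 were all the genes with a site except RAD52. A single site was mostly enough, since the neighbours of most genes had a median of 0. RAD51B and FANCD2 had more sites than each of their 20 neighbours, as did 2.84% of all protein-coding genes and 3.77% of the length neighbours. By length, 1 of 9 genes under 30 kb had a site (6.87% of all genes of that length), 13 of 32 from 30 to 100 kb (29.2%) and 9 of 16 over 100 kb (49.4%).

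**Figure D4:**
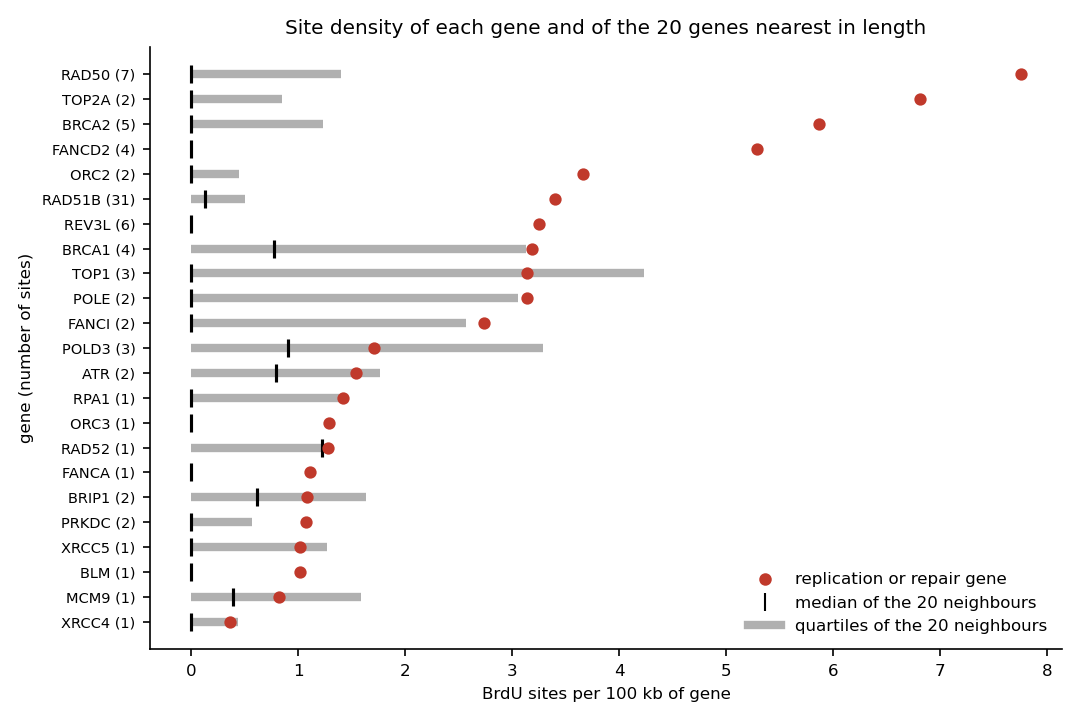
BrdU sites per 100 kb for the 23 genes with a site (red points, number of sites after the name), with the median (black tick) and the quartiles (grey bar) of their 20 length neighbours on the same chromosome. RAD50, TOP2A, BRCA2 and FANCD2 lie above 5 per 100 kb, and the quartile bars of their neighbours end below 2.

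Sites in the group were intronic with few exceptions. Of the 85, 62 lay in introns of the canonical transcript, 21 outside it (18 in RAD51B, 2 in POLD3 and 1 in BRCA1) and 2 over its exons. With the exon of the minor BRCA2 transcript, 3 sites overlapped an exon (3.53%, exact interval 0.734 to 9.97%), against 6.34% of the sites in all protein-coding genes. Without RAD51B the share was 5.56% (3 of 54, exact interval 1.16 to 15.4%). Exons made up 10.5% of the bases of the group and 8.09% of those of all protein-coding genes. The median distance to the nearest exon of the gene was 3.08 kb, and 1.56 kb without RAD51B, against 3.46 kb over all.

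The median distance from the TSS was 71.0 kb, but 44.3 kb without RAD51B, against 38.1 kb for sites in all protein-coding genes. The genes of the group were longer than these, which bears on such a distance. Position in the gene, depth and arrays were not computed for the length neighbours. Within the first 5 kb after the TSS lay 3 sites, both arrays of POLE and the first site of FANCI. They made up 3.53% of the sites, or 5.56% without RAD51B, against 5.83% over all. Of the 62 intronic sites, 5 fell in intron 1 (8.06%, exact interval 2.67 to 17.8%), in POLE, REV3L and FANCI. The share over all protein-coding genes was 25.9%, but first introns also made up less of the intron sequence here, 9.83% against 24.6%. When each gene was divided into 3 equal parts, 35.2% of the sites without RAD51B lay in the first part, 37.0% in the middle and 27.8% in the last, against 35.3, 34.0 and 30.6% over all protein-coding genes.

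**Figure D5:**
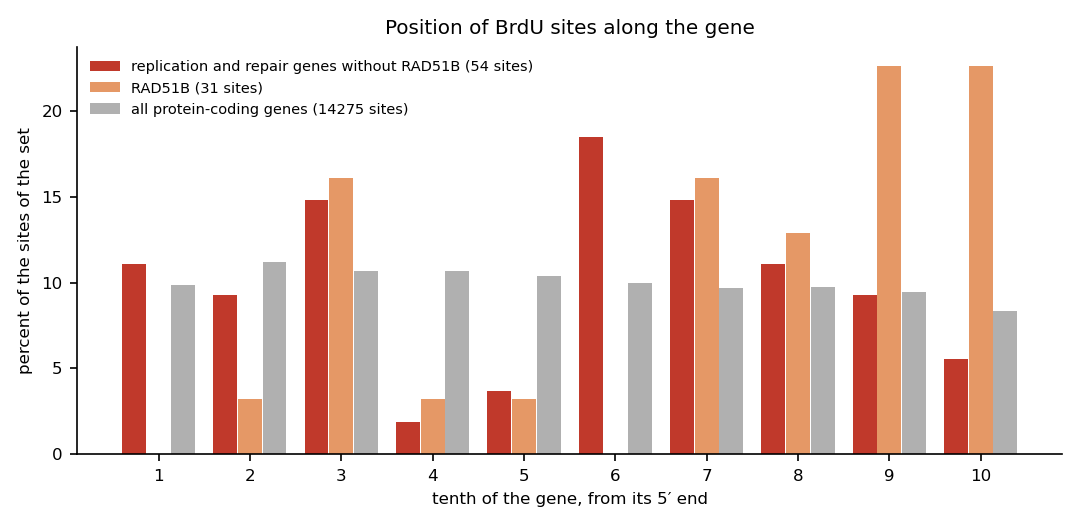
Percent of sites in 10 equal parts of the gene, counted from the 5′ end, for the replication and repair genes without RAD51B (red, 54 sites), RAD51B alone (orange, 31 sites) and all protein-coding genes (grey, 14275 sites). Grey bars stay close to 10% throughout, and 14 of the 31 sites of RAD51B fall in the last 2 parts.

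Peaks of the list overlapped each other at some of the sites. A depth of 2 or more was found at 16 of 85 sites (18.8%, exact interval 11.2 to 28.8%), against 20.8% of the sites in protein-coding genes. Without RAD51B the share was 24.1% (13 of 54, exact interval 13.5 to 37.6%). The 16 sites were spread over 11 genes, with 3 in RAD51B and 2 each in BRCA2, FANCD2 and REV3L. A depth of 3 or more was found at 1 site (1.18%, against 3.83% over all). In width the sites ranged from 190 to 761 bp with a median of 274 bp, and the mean AT content was 60.9% (SD 4.69 percentage points over sites), against 280 bp and 60.2% over all.

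On the coding strand, T was more frequent than A at 54 of 85 sites (63.5%, exact interval 52.4 to 73.7%), against 62.0% of the sites in protein-coding genes. Single genes had few sites, and a difference between genes was not tested. All 6 sites of REV3L, all 3 of TOP1 and both of ATR, BRIP1, POLE, PRKDC and TOP2A had more T than A. All 5 sites of BRCA2 had more A than T. The other genes with more than 1 site were mixed, such as RAD50 with more T at 2 sites and more A at 4. In RAD51B, 19 of 31 had more T. Sites of one gene share its base composition and are not independent of each other.

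Within the group, the flanks of genes with a site held more sites than those of genes without one. The same comparison was not made for other protein-coding genes, so it cannot be read as a trait of the group. Within 100 kb on either side of the 57 genes there were 105 sites, counted once for each gene they flanked. Only the sites of the flanked gene itself were left out, so some of them lay in another gene of the group. The density was 17.0 per Mb beside the 23 genes with a site and 3.97 per Mb beside the 34 without. Of those 34, 21 had no site in either flank. The distance from a gene without a site to the nearest one had a median of 146 kb, from 2.89 kb for ORC1 to 4397 kb for POLA1. Genes without a site were also shorter, with a median of 46.3 kb against 95.7 kb.

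A second list held 95 other genes of the same pathways. Of these, 26 had a site (27.4%, exact interval 18.7 to 37.5%), with 75 sites in all and a median length of 33.8 kb. Again a single gene held much of the total. PRIM2, the large primase subunit, had 26 sites on 332 kb, and the density was 15.5 sites per Mb with it and 10.9 per Mb without it. POLB, the polymerase of base excision repair, had 6 sites on 33.4 kb and CDC7, the kinase that fires origins, 5 on 24.9 kb.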

How the data were processed

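The values are positions, in bp, of BrdU peaks from synchronized BJ-hTERT cells. Per the study's methods and the labels, the authors aligned reads to hg38 with Bowtie2, called peaks with MACS2 (version 2.1.0 in the submitters' processing notes) at each timepoint against Input DNA and deposited all of them in one list. Per the methods, repeats were checked for correlation and then analysed jointly. How their peaks were joined in the list is not given in the sources used here. The start column was taken as 0-based, and printed positions are 1-based. All intervals were distinct and fitted within the hg38 chromosomes.

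Peaks that overlapped or touched were merged, and a site counted for a gene at an overlap of at least 1 bp. Distance from the TSS was measured from the midpoint of the site to the start of the Ensembl canonical transcript. It carried a sign, so that sites upstream of that start entered the medians as negative values. A site was called an array when its self match was at least 70% at one offset of up to 120 bp, a definition taken over from earlier work on these data. Neighbours were the 20 nearest in log length. The 57 genes, the lists and the measures were chosen with earlier results of these data known. Every gene with a site is named, and sites are described singly for genes with the most sites, for BRCA1, BRCA2, ATM and ATR, and where they were exonic, arrays or of depth 3 or more. Intervals are exact (Clopper-Pearson or Poisson, scipy 1.17.1). Merging, depth and overlap were checked against bedtools 2.31.1, and the array search was tested on simulated data. Some items of these lists are not reported here.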

Additional observations from a re-analysis of the deposited data

How the results depend on the processing

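Each of the 9 results was recomputed under other settings, 43 values in all, 5 of them under settings chosen after seeing the data. In 38 the value stayed within 1.5 times (counts) or within the counting interval of the reported value. Without RAD51B, which is both the longest gene and the one with the most sites, 54 sites remained, the density was 10.6 per Mb and the median distance from the TSS was 44.3 kb. Counted over peaks as listed, 32.4% overlapped another peak, which follows from counting each peak of a stacked site. With a self match of 80% in place of 70%, 1 of the 2 POLE arrays was still called.

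The list has no score, timepoint or repeat, so a stricter peak threshold and the peaks of each repeat alone were not run. No paired analysis was possible because the peaks carry no replicate. Read depth and mappability at single genes are unknown, so that a gene without a site cannot be told apart from a gene where a site was missed.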
